A study of Caenorhabditis elegans with 18 samples.

Results

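The transcriptional response of nhr-178 mutant Caenorhabditis elegans to antimycin A was followed over every gene with enough counts, in whole animals collected as early adults. The members are all genes of the deposited count table that passed a filter on low counts, 10981 of 23368, compared between 3 antimycin libraries and 3 DMSO libraries of the strain nhr-178(gk1005), 6 of the 18 libraries of the study. A gene was called when its adjusted p (edgeR's quasi-likelihood test, Benjamini-Hochberg over all 10981 genes) was below 0.05. Levels are counts scaled to library size with TMM factors (CPM, counts per 1e6), and changes are log2 fold changes of antimycin over DMSO with their SE, in 3 libraries a group throughout.

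The groups used were nhr-178(gk1005) animals on 0.3 µM antimycin A, nhr-178(gk1005) animals on the solvent DMSO, and for comparison nhr-45(tm1307) mutants and wild-type N2 (WT) animals on the same 2 plates. All ate Escherichia coli HT115 during the treatment, were staged by 18 hours of arrest as first-stage larvae, and met the compound from that stage until they were early adults. Each library came from a pool of at least 1000 whole animals, so tissues are mixed, and for any gene below fewer cells of a type and less RNA per cell cannot be told apart. The submitters call the samples biological triplicates, and whether each came from a separate culture is not stated, so every p-value reflects the spread over these libraries alone, which may be technical.

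Antimycin A blocks complex III of the respiratory chain, and worms that sense impaired mitochondria turn on enzymes that detoxify foreign compounds. Phase I enzymes such as cytochromes P450 add a reactive group to a lipophilic compound, phase II enzymes such as UDP-glucuronosyltransferases and glutathione S-transferases attach a sugar or glutathione, and ABC transporters export the product. Nuclear hormone receptors, a family much enlarged in nematodes, are transcription factors regulated by small molecules, and several of them act in this defence, mainly in the intestine. The comparison asks which genes answer to antimycin when the receptor gene nhr-178 is mutated, and where that answer departs from those of WT and nhr-45 animals.

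The 6 nhr-178 libraries held 4600320 to 8679509 counts. Their first principal component (39% of the variance) separated antimycin from DMSO, and the second (17.6%) set antimycin replicate 1 apart from the other 5. The nhr-178 gene (V:1603906-1607953) had too few counts to be tested. The mutant had 7, 7 and 8 counts of it in antimycin and 0, 0 and 2 in DMSO, against 2, 2 and 11 in antimycin and 2, 2 and 2 in DMSO in WT. Which part of the gene the deletion removes is not stated in the labels, so this level does not check the genotype.

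Antimycin changed 297 genes in nhr-178 animals (2.7% of those tested), 225 higher (2.05%) and 72 lower (0.656%). Of these, 163 were at least 2-fold higher and 40 at least 2-fold lower. No DMSO library held a count of 13 of the genes called higher. In 295 of the 297 the antimycin and DMSO values did not overlap, which was true of 18.2% of all genes tested. A lack of overlap given below for a called gene therefore adds little to its call. Without antimycin replicate 3 the number called was 196. Enzymes and exporters of detoxification made up 15.6% of the genes called higher. These were 35 of the 127 tested, where 2.05% of all genes tested were called higher. Of the same 127, 33 were called higher in WT, where 2.07% of all genes tested were. In nhr-45 12 of them were called higher and 6 lower, against 15.2% and 8.33% of all genes tested. Some heme-handling genes, lysozymes and digestive proteases were also called higher, while propionate breakdown genes were called lower. Of the 22 proteases 3 were called lower, and of 111 cuticle collagens 7 were called higher and 8 lower.

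The largest fitted increase was that of F48G7.12 (V:643695-646229), with 37.4, 30.8 and 31.2 CPM in the antimycin libraries, against 0, 0 and 0 CPM in the DMSO libraries. Against a floor of 3 counts over the DMSO group, it was at least 186-fold higher. C01G10.4 (V:15089740-15090059) had 19.8, 22.6 and 24.5 CPM in antimycin, against 0.217, 0 and 0.166 CPM in DMSO, a ratio of 194 (95% counting interval 53.5 to 1610). B0205.13 had 111, 94.7 and 123 CPM in antimycin, against 3.91, 2.12 and 3.33 CPM in DMSO (log2 fold change 5.16 ± 0.28, adjusted p = 2.3e-13). These 3 genes and the 2 below were chosen among called genes whose antimycin and DMSO values do not overlap, so that separation follows from the choice. Among genes averaging at least 5 CPM the decreases were smaller. F15E6.3 (IV:4294895-4295689) was the lowest, with 2.27, 1.36 and 1.14 CPM in antimycin, against 11.3, 14.1 and 10.8 CPM in DMSO (log2 fold change -2.97 ± 0.38, adjusted p = 5.3e-06). Y43C5A.7 had 2.69, 3.96 and 3.58 CPM in antimycin, against 14.1, 19.1 and 19.3 CPM in DMSO (log2 fold change -2.33 ± 0.33, adjusted p = 2.8e-05). The files do not say what these 5 genes do.

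Of 32 cytochromes P450 tested, 13 were called higher in nhr-178. They came from a few subfamilies, namely cyp-13A2, cyp-13A5, cyp-13A7, cyp-13A8, cyp-13A12, cyp-14A4, cyp-25A1, cyp-25A2, cyp-25A3, cyp-33C2, cyp-33C4, cyp-33C5 and cyp-33C8. cyp-33C5 (V:2245004-2247029) was at 151, 218 and 158 CPM in the antimycin libraries, against 0, 0.758 and 0.998 CPM in the DMSO libraries (log2 fold change 8.07 ± 0.40, adjusted p = 2.5e-14). Its neighbour cyp-33C4 was at 18.2, 20.8 and 15.4 CPM in antimycin, against 0.217, 0.909 and 0.499 CPM in DMSO (log2 fold change 4.93 ± 0.48, adjusted p = 3.4e-08). cyp-25A2 (III:3835221-3837211) was at 46.7, 69.6 and 64.2 CPM in antimycin, against 3.69, 3.79 and 4.82 CPM in DMSO (log2 fold change 3.87 ± 0.29, adjusted p = 1.6e-10). All 3 had low levels in every DMSO library. No DMSO library held a count of cyp-13A7, cyp-33C2 or cyp-14A4. In antimycin cyp-13A7 was at least 28.03-fold, cyp-33C2 at least 35.8-fold and cyp-14A4 at least 34.4-fold higher. The summed level of the 32 genes was 449, 539 and 474 CPM in antimycin, against 186, 216 and 194 CPM in DMSO. The median log2 fold change of the list was 0.54, against 0 over all genes tested. With a filter of at least 50 counts in every library of a group, 4 P450 genes were called higher. Reads may be shared between near-identical members, so single cyp-33C and cyp-13A genes are uncertain.

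P450 enzymes take their electrons from partner proteins, and those described here were chosen among called genes. emb-8 was named as one of the most abundant called genes, and cytb-5.1 after its values were seen. That they were called therefore follows from the choice, and partner proteins were not tested as a set. emb-8 (III:5196680-5199677), the NADPH-cytochrome P450 reductase, was at 669, 657 and 726 CPM in the antimycin libraries, against 386, 390.3 and 359 CPM in the DMSO libraries (log2 fold change 0.85 ± 0.12, adjusted p = 3.2e-05). cytb-5.1, a cytochrome b5 that was singled out after its values were seen, was at 473, 466 and 586 CPM in antimycin, against 311, 238 and 328 CPM in DMSO (log2 fold change 0.80 ± 0.14, adjusted p = 0.000341). Exons of emb-8 overlap moc-6 and exons of cytb-5.1 overlap tbc-19, so some reads may belong there.

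Of 39 UDP-glucuronosyltransferases, 11 were called higher. edgeR and DESeq2 called 0 of the P450, UDP-glucuronosyltransferase and glutathione S-transferase genes lower, with 2, 2 and 0 lower at an unadjusted p below 0.05. ugt-9 (V:4896048-4897969) was at 1483, 1451 and 1549.9 CPM in the antimycin libraries, against 8.47, 4.85 and 12.1 CPM in the DMSO libraries (log2 fold change 7.47 ± 0.26, adjusted p = 9.9e-18). It was among the 10 most abundant of all called genes. ugt-61 (V:4742422-4745373) had 55.2, 49.1 and 45.3 CPM in antimycin, against 0.217, 1.52 and 1.16 CPM in DMSO (log2 fold change 5.56 ± 0.32, adjusted p = 5.9e-13). ugt-62 had 93.2, 138 and 143 CPM in antimycin, against 9.77, 11.8 and 9.31 CPM in DMSO (log2 fold change 3.59 ± 0.20, adjusted p = 5.2e-13). ugt-1 had 39.7, 26.9 and 42.8 CPM in antimycin, against 2.61, 0.606 and 0.499 CPM in DMSO (log2 fold change 4.99 ± 0.42, adjusted p = 1.9e-09). In none of them did the groups overlap. The other 7 were ugt-2, ugt-11, ugt-12, ugt-19, ugt-29, ugt-31 and ugt-50. ugt-1 and ugt-2 are neighbours of like sequence whose reads may be shared. The list summed to 1988, 2019 and 2152 CPM in antimycin, against 251, 246 and 278 CPM in DMSO. Its median log2 fold change was 0.68.

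Of 29 glutathione S-transferases, 8 were called higher (gst-5, gst-6, gst-12, gst-14, gst-20, gst-24, gst-33 and gst-39). gst-33 (V:3467451-3468562) had 15.3, 16.1 and 16.2 CPM in antimycin, against 0, 0 and 0 CPM in DMSO. It was at least 91.3-fold higher. gst-12 (II:13616682-13618061) had 13.6, 13.1 and 13.4 CPM in antimycin, against 1.74, 1.67 and 1.66 CPM in DMSO (log2 fold change 2.97 ± 0.32, adjusted p = 3.3e-07). gst-6 had 19.2, 31.5 and 27.7 CPM in antimycin, against 7.60, 3.64 and 3.82 CPM in DMSO (log2 fold change 2.43 ± 0.30, adjusted p = 2.6e-06). The groups of these 3 genes lay far apart. gst-20 had 26.2, 36.1 and 27.6 CPM in antimycin, against 8.90, 9.40 and 7.48 CPM in DMSO (log2 fold change 1.81 ± 0.29, adjusted p = 0.00015). The family summed to 646, 699 and 665 CPM in antimycin, against 457, 504 and 492 CPM in DMSO. gst-4, often used as a reporter of oxidative stress, was not called, with 2.07, 1.47 and 2.002 CPM in antimycin, against 1.30, 1.21 and 2.83 CPM in DMSO (log2 fold change 0.02 ± 0.46, adjusted p = 0.998). Its values overlapped between treatments.

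Of 27 ABC transporters, 3 exporters were called higher and 1 peroxisomal-type transporter lower. The P-glycoprotein gene pgp-9 (V:17755892-17764751) had 29.1, 35.7 and 30.03 CPM in the antimycin libraries, against 0.217, 0.909 and 1.33 CPM in the DMSO libraries (log2 fold change 5.17 ± 0.39, adjusted p = 2.2e-10). pgp-1 had 9.30, 15.5 and 9.73 CPM in antimycin, against 1.52, 2.27 and 2.99 CPM in DMSO (log2 fold change 2.33 ± 0.35, adjusted p = 6.6e-05). The multidrug resistance protein gene mrp-2 had 3.31, 3.28 and 4.86 CPM in antimycin, against 0.217, 0.455 and 0.998 CPM in DMSO (log2 fold change 2.69 ± 0.65, adjusted p = 0.0156). Its call was lost without DMSO replicates 1 or 2 or antimycin replicate 3 (adjusted p up to 0.0974). pmp-5, of the class found in peroxisomal membranes, was lower, with 37.2, 37.8 and 33.5 CPM in antimycin, against 73.2, 48.3 and 57.2 CPM in DMSO (log2 fold change -0.72 ± 0.19, adjusted p = 0.0332). It was not called without DMSO replicates 1 or 3 or antimycin replicates 1, 2 or 3 (adjusted p up to 0.275). The median log2 fold change of the list was 0.08.

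**Figure D1:**
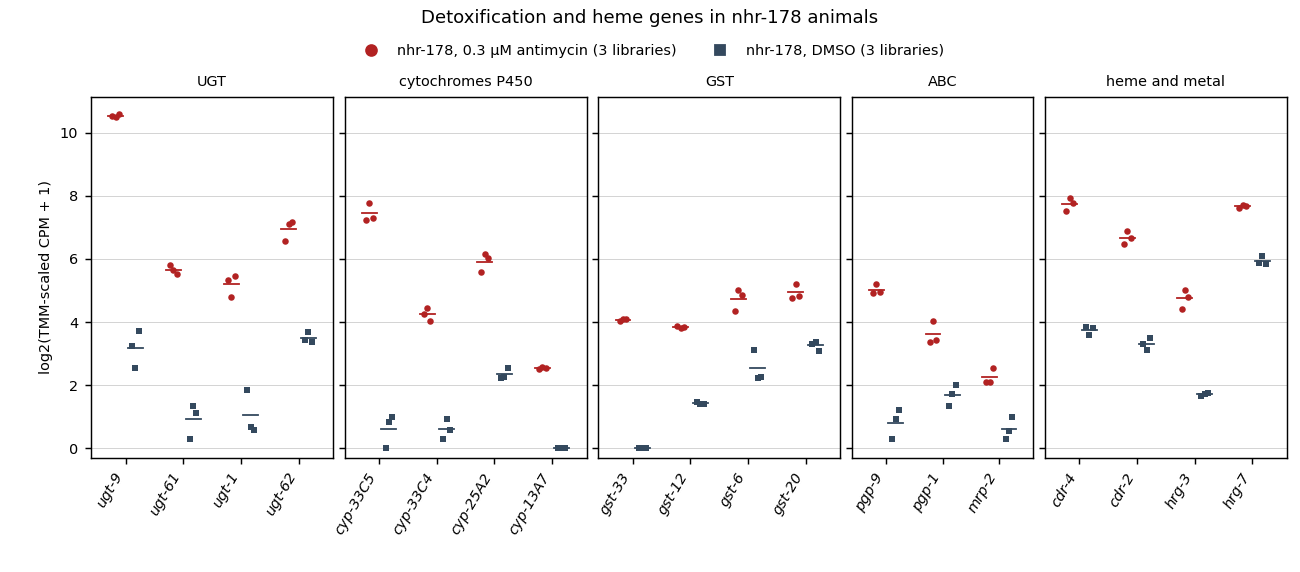
Levels of detoxification, heme and metal genes in each nhr-178 library, as log2(TMM-scaled CPM + 1); each point is 1 library and bars are means of 3, with 0.3 µM antimycin (circles) left of DMSO (squares). In every gene shown the antimycin values lie above the DMSO values, with ugt-9 reaching 1451 to 1549.9 CPM and gst-33 and cyp-13A7 at 0 in all DMSO libraries.

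Some genes of heme and metal handling rose in the same animals. Worms cannot make heme and take it up from bacteria, and it is the cofactor of P450 enzymes and of complex III. Of 29 genes of metal and heme handling, 8 were called higher, namely cdr-2, cdr-4 and 6 of the 7 heme-responsive hrg genes tested. The fits without DMSO replicate 2 or DMSO replicate 3 called 5 of the 29. The hrg subset was singled out after the values were seen. hrg-3 (V:9756468-9757019), a secreted carrier that delivers heme from the intestine to other tissues, was at 20.5, 31.7 and 26.6 CPM in the antimycin libraries, against 2.17, 2.27 and 2.33 CPM in the DMSO libraries (log2 fold change 3.53 ± 0.33, adjusted p = 2.5e-08). hrg-7, an aspartic protease-like protein secreted by the intestine, was at 194, 207 and 205 CPM in antimycin, against 58.2, 67.3 and 56.5 CPM in DMSO (log2 fold change 1.73 ± 0.14, adjusted p = 1.9e-09). In both, antimycin and DMSO values were far apart, and both overlap another counted gene (F58E6.11 for hrg-3, C15C8.7 for hrg-7). The heme transporter gene hrg-1 had 98.6, 146 and 141 CPM in antimycin, against 78.4, 70.2 and 57.2 CPM in DMSO (log2 fold change 0.91 ± 0.16, adjusted p = 0.000628). The intestinal importer gene hrg-4 had 19.6, 21.9 and 27.6 CPM in antimycin, against 13.03, 11.4 and 10.8 CPM in DMSO (log2 fold change 0.98 ± 0.24, adjusted p = 0.0193). Both rose by less than hrg-3. Of the cadmium-responsive genes, cdr-4 (V:12407366-12408625) was at 183, 243 and 217 CPM in antimycin, against 13.5, 10.9 and 12.97 CPM in DMSO (log2 fold change 4.11 ± 0.18, adjusted p = 1.1e-15). cdr-2 was at 88.8, 117 and 99.97 CPM in antimycin, against 8.90, 7.58 and 10.3 CPM in DMSO (log2 fold change 3.51 ± 0.22, adjusted p = 3.3e-12). The metallothionein gene mtl-2, which binds metal ions and was singled out after its values were seen, was not called, at 102, 114 and 127 CPM in antimycin, against 109, 96.2 and 109 CPM in DMSO (log2 fold change 0.13 ± 0.15, adjusted p = 0.817).

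Of 104 nuclear hormone receptor genes, 5 were called higher (nhr-8, nhr-31, nhr-69, nhr-106 and nhr-142). Without DMSO replicate 3 or antimycin replicate 3 edgeR called 0 of them, without DMSO replicate 2 it called 1 and without antimycin replicate 2 it called 2. nhr-8 (IV:7710983-7714210), a receptor with a known part in resistance to toxins, had 9.09, 11.9 and 10.7 CPM in antimycin, against 6.08, 3.03 and 4.82 CPM in DMSO (log2 fold change 1.22 ± 0.31, adjusted p = 0.0228). nhr-31, a relative of the mammalian HNF4 receptors, had 50.4, 61.5 and 61.6 CPM in antimycin, against 36.7, 32.3 and 30.8 CPM in DMSO (log2 fold change 0.80 ± 0.18, adjusted p = 0.00841). In both genes the groups did not overlap. The call of nhr-8, which overlaps F33D4.6, was lost without DMSO replicates 2 or 3 or antimycin replicates 2 or 3 (adjusted p up to 0.188). That of nhr-31 was lost without DMSO replicates 2 or 3 or antimycin replicates 2 or 3 (adjusted p up to 0.0565). nhr-45 (X:4656433-4660318) itself had 5.79, 5.77 and 7.01 CPM in antimycin, against 6.51, 6.37 and 8.15 CPM in DMSO (log2 fold change -0.18 ± 0.28, adjusted p = 0.87). Its values overlapped between treatments.

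Defence and digestion genes formed another group. Of 10 lysozymes, enzymes that break down bacterial cell walls, 5 were called higher in nhr-178. lys-2 (V:10280307-10281474) was at 639.7, 729.7 and 807 CPM in the antimycin libraries, against 448, 392 and 474 CPM in the DMSO libraries (log2 fold change 0.73 ± 0.13, adjusted p = 0.000732). lys-8, which overlaps C17G10.13, was at 183, 161 and 189 CPM in antimycin, against 112, 107 and 111 CPM in DMSO (log2 fold change 0.69 ± 0.15, adjusted p = 0.00641). The invertebrate-type lysozyme genes ilys-2 and ilys-3, neighbours on chromosome IV, had few counts in DMSO. ilys-2 (IV:2467678-2468879) had 25.6, 29.8 and 32.8 CPM in antimycin, against 0, 0.606 and 1.66 CPM in DMSO (log2 fold change 5.16 ± 0.53, adjusted p = 1.1e-07). ilys-3 had 3.93, 5.77 and 6.58 CPM in antimycin, against 0, 0.303 and 0 CPM in DMSO, a ratio of 48.3 (95% counting interval 13.1 to 404). Its fitted log2 fold change of 5.35 ranged from 4.83 to 8.11 when 1 library was left out. The fifth was lys-7. The whole list summed to 2030, 1959 and 2210 CPM in antimycin, against 1491, 1488 and 1799 CPM in DMSO.

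Of 61 C-type lectins, sugar-binding proteins many of which answer to pathogens, 6 were called higher and 3 lower, and 3 were called higher without DMSO replicate 2. clec-83 (IV:2839371-2841472) had 316, 351 and 357 CPM in antimycin, against 125, 141 and 145 CPM in DMSO (log2 fold change 1.32 ± 0.13, adjusted p = 8.6e-08) and overlaps Y54G2A.7. clec-80 had 8.47, 14.6 and 13.7 CPM in antimycin, against 2.61, 1.52 and 1.497 CPM in DMSO (log2 fold change 2.75 ± 0.42, adjusted p = 8.1e-05). Neither had overlapping groups. clec-190, which overlaps a small RNA gene, was lower, with 5.37, 5.77 and 6.72 CPM in antimycin, against 24.1, 19.4 and 23.3 CPM in DMSO (log2 fold change -1.89 ± 0.21, adjusted p = 3.5e-07). clec-48 was lower too, with 9.09, 8.48 and 5.86 CPM in antimycin, against 21.1, 21.98 and 23.9 CPM in DMSO (log2 fold change -1.52 ± 0.22, adjusted p = 3.9e-05). The family moved in both directions. Among 56 antimicrobial and epidermal peptides, 5 were higher and 3 lower. The thaumatin-like gene thn-2 had 41.3, 46.7 and 56.5 CPM in antimycin, against 14.98, 17.1 and 24.8 CPM in DMSO (log2 fold change 1.34 ± 0.19, adjusted p = 2.8e-05). The caenacin gene cnc-7 had 4.13, 4.64 and 6.58 CPM in antimycin, against 18.5, 12.3 and 12.1 CPM in DMSO (log2 fold change -1.46 ± 0.26, adjusted p = 0.00071). Without antimycin replicate 1 these counts were 8 higher and 1 lower, and DESeq2 called 9 higher. The fits without DMSO replicate 3 or antimycin replicate 3 called 1 lower.

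Of 22 cathepsin and aspartic proteases, which digest protein in the gut lumen and in lysosomes, 6 were called higher (asp-1, asp-3, asp-5, asp-8, asp-12 and cpr-1) and 3 lower (cpr-6, cpr-9 and cpz-1). The fit without antimycin replicate 1 called 1 lower. cpr-1 (V:11975551-11976756), a cathepsin B-like gene of the intestine, had 1121, 1273 and 1188 CPM in antimycin, against 221, 214 and 237 CPM in DMSO (log2 fold change 2.41 ± 0.15, adjusted p = 3.8e-12). asp-8 (V:3024549-3027931) had 197, 218 and 187 CPM in antimycin, against 42.5, 39.9 and 49.9 CPM in DMSO (log2 fold change 2.19 ± 0.17, adjusted p = 5.1e-10). Its relative asp-12 (V:8269210-8272056) had 14.5, 16.5 and 18.4 CPM in antimycin, against 0.868, 1.52 and 1.33 CPM in DMSO (log2 fold change 3.69 ± 0.41, adjusted p = 5.3e-07). The groups of these 3 genes did not overlap. The cathepsin Z gene cpz-1 was lower, with 55.6, 75.9 and 69.5 CPM in antimycin, against 138, 137 and 120.4 CPM in DMSO (log2 fold change -0.97 ± 0.14, adjusted p = 3.9e-05). asp-1 was the most abundant gene called, with 1453, 1718 and 1799 CPM in antimycin, against 1035, 1058 and 1175 CPM in DMSO (log2 fold change 0.60 ± 0.13, adjusted p = 0.00792). It was not called without DMSO replicate 1 or antimycin replicate 3 (adjusted p up to 0.0663). The summed level of the 22 proteases was 4926, 5605 and 5510.1 CPM in antimycin, against 3539, 3509.8 and 3620 CPM in DMSO. Of 16 intestine markers 4 were called higher, namely asp-1, asp-5, cpr-1 and act-5, the actin of the microvilli. act-5 was not called without DMSO replicates 2 or 3 or antimycin replicate 2 (adjusted p up to 0.0871). A positive log2 fold change was found in 15 of the 16. The markers summed to 5028, 5522 and 5338 CPM in antimycin, against 3254, 3048 and 3159.5 CPM in DMSO. Much of the rise in this sum came from cpr-1 and asp-1. asp-1, asp-5 and cpr-1 are also among the 22 proteases, so the marker and protease sums share them. The other 12 markers were not called. The part of the intestine's share of the RNA in the results above was not tested.

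Metabolic genes were also called. In the propionate shunt, a route that breaks down propionate without vitamin B12, 4 of 5 genes were called lower, and 2 of 5 in the fit without DMSO replicate 1. acdh-1, the acyl-CoA dehydrogenase of its first step, had 45.04, 44.2 and 50.8 CPM in antimycin, against 83.8, 68.96 and 90.3 CPM in DMSO (log2 fold change -0.79 ± 0.16, adjusted p = 0.00312). The hydratase gene ech-6 had 182, 212 and 199 CPM in antimycin, against 328, 269 and 303 CPM in DMSO (adjusted p = 0.00768). The hydrolase gene hach-1 had 148, 169 and 159.8 CPM in antimycin, against 311, 295 and 311 CPM in DMSO (adjusted p = 3.2e-05). In none of these 3 genes did the groups overlap. The dehydrogenase gene hphd-1 had 30.8, 31.9 and 36.8 CPM in antimycin, against 81.2, 49.4 and 61.9 CPM in DMSO (adjusted p = 0.00345). The call of ech-6 was lost without DMSO replicate 1 or antimycin replicate 1 (adjusted p up to 0.0662) and that of hphd-1 without DMSO replicate 1 (adjusted p up to 0.0577). The log2 fold changes of the 4 lay between -0.95 and -0.60. In nhr-45 4 of the 5 genes were called lower as well, against 8.33% of all genes tested. The median log2 fold change of the list was -0.67 there, against -0.79 in nhr-178. For the difference between the responses of the mutants edgeR and DESeq2 called 0 of the 5, and 0 had an unadjusted p below 0.05. In WT edgeR and DESeq2 called 0 of the 5, with 1 lower at that p. Of 7 genes of the B12-dependent propionate route edgeR and DESeq2 called 0, and 0 had an unadjusted p below 0.05.

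In peroxisomal beta-oxidation, which shortens very long fatty acids and makes ascaroside pheromones, 3 of 11 genes were called higher, and 1 of 11 in the fits without DMSO replicate 1, DMSO replicate 3 or antimycin replicate 2. maoc-1 (II:7196276-7197495), a hydratase of that pathway that overlaps E04F6.6, had 65.9, 73.4 and 72.7 CPM in antimycin, against 34.3, 25.9 and 24.3 CPM in DMSO (log2 fold change 1.33 ± 0.17, adjusted p = 5.3e-06). Among lipid-binding proteins 3 of 16 were higher, with lbp-8, a lysosomal lipid chaperone, at 17.1, 14.2 and 13.3 CPM in antimycin, against 0.217, 0.455 and 0.499 CPM in DMSO (log2 fold change 5.13 ± 0.53, adjusted p = 5.3e-07). Of 24 genes of fatty acid synthesis, the elongase genes elo-2 and elo-6 were called higher. elo-6 had 122, 124 and 124 CPM in antimycin, against 81.4, 85.5 and 91.8 CPM in DMSO (log2 fold change 0.51 ± 0.12, adjusted p = 0.0128). Without DMSO replicate 1, antimycin replicate 2 or antimycin replicate 3 edgeR called 0 of the 24, and without DMSO replicate 2 or DMSO replicate 3 it called 1, while DESeq2 called 4. icl-1, the enzyme of the glyoxylate shunt, was lower, with 12.2, 10.97 and 12.01 CPM in antimycin, against 22.8, 18.3 and 21.95 CPM in DMSO (log2 fold change -0.84 ± 0.20, adjusted p = 0.0161). Its call was lost without DMSO replicates 1 or 3 or antimycin replicates 2 or 3 (adjusted p up to 0.0917). acs-2, an acyl-CoA synthetase for mitochondrial beta-oxidation, had 10.7, 11.8 and 13.7 CPM in antimycin, against 18.7, 22.3 and 25.3 CPM in DMSO (log2 fold change -0.87 ± 0.23, adjusted p = 0.0357). Its call was lost without DMSO replicates 2 or 3 or antimycin replicates 1, 2 or 3 (adjusted p up to 0.19). mxl-3, a repressor of lysosomal lipase genes in fed worms, was singled out after its values were seen and had 20.5, 27.4 and 28.9 CPM in antimycin, against 53.8, 49.9 and 36.8 CPM in DMSO (log2 fold change -0.86 ± 0.19, adjusted p = 0.00634).

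Cuticle collagens split. Of 111 tested, 7 were called higher and 8 lower. The fit without DMSO replicate 3 called 3 higher, and those without DMSO replicate 1, antimycin replicate 2 or antimycin replicate 3 called 4. col-10 (V:9164292-9165307) had 2.48, 1.58 and 3.29 CPM in the antimycin libraries, against 16.7, 11.2 and 16.3 CPM in the DMSO libraries (log2 fold change -2.60 ± 0.32, adjusted p = 3.4e-06). col-3 had 1.03, 1.58 and 2.29 CPM in antimycin, against 10.6, 4.85 and 8.31 CPM in DMSO (log2 fold change -2.20 ± 0.33, adjusted p = 7.2e-05). Its neighbour col-117 had 1.45, 1.02 and 0.858 CPM in antimycin, against 6.08, 7.27 and 8.65 CPM in DMSO (log2 fold change -2.76 ± 0.35, adjusted p = 5.3e-06). These 3 transcripts were rare in both groups. col-129 was higher, with 19.01, 22.95 and 23.5 CPM in antimycin, against 7.60, 8.49 and 10.1 CPM in DMSO (log2 fold change 1.32 ± 0.20, adjusted p = 5.4e-05). The collagens summed to 17422, 16993 and 15977 CPM in antimycin, against 14786, 17471 and 16966 CPM in DMSO, and these sums overlapped.

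**Figure D2:**
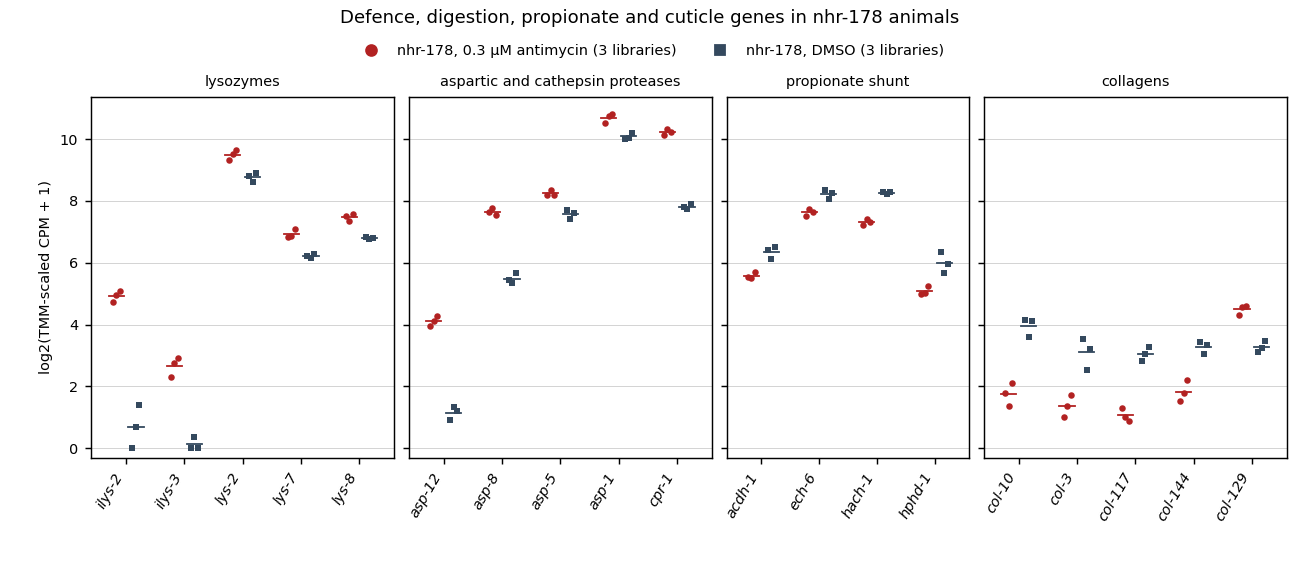
Levels of lysozyme, protease, propionate shunt and collagen genes in each nhr-178 library, as log2(TMM-scaled CPM + 1); each point is 1 library and bars are means of 3, with 0.3 µM antimycin (circles) left of DMSO (squares). The genes shown were chosen among called genes. The lysozyme and protease genes shown lie higher in antimycin, from 14.5 to 18.4 against 0.868 to 1.52 CPM for asp-12. The 4 shunt genes lie lower, and of the collagens shown only col-129 is higher. Not shown are 3 of the 22 proteases that were called lower, and of all 111 collagens 7 were called higher and 8 lower.

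Respiratory and stress lists gave few calls. Of 17 genes of the mitochondrial unfolded protein response edgeR and DESeq2 called 0, and 2 were higher at an unadjusted p below 0.05. hsp-6 (V:4824124-4826760), the mitochondrial chaperone whose induction is the standard reporter, had 202, 219 and 229.8 CPM in antimycin, against 219.9, 203 and 231 CPM in DMSO (log2 fold change -0.00479 ± 0.13, adjusted p = 0.9986). hsp-60 had 626, 602 and 592 CPM in antimycin, against 689, 591 and 633 CPM in DMSO (log2 fold change -0.07 ± 0.12, adjusted p = 0.878). Values of both overlapped between treatments. The list of complex III, which antimycin blocks, with cytochrome c had 9 genes, of which edgeR and DESeq2 called 0 and 1 was higher at an unadjusted p below 0.05. Of 22 superoxide, peroxide and thiol enzymes both tools called 0, with 2 higher and 1 lower at an unadjusted p below 0.05. Of 10 cytosolic heat shock genes 2 were higher, hsp-16.2 with 3.51, 5.65 and 8.87 CPM in antimycin, against 2.61, 1.52 and 0.499 CPM in DMSO (log2 fold change 2.04 ± 0.40, adjusted p = 0.00189) and hsp-17, which overlaps F52E1.14, with 6.61, 8.48 and 8.44 CPM in antimycin, against 1.95, 3.94 and 1.996 CPM in DMSO (log2 fold change 1.55 ± 0.33, adjusted p = 0.00528). Reads of the hsp-16 genes can be shared between near-identical copies, so the value of hsp-16.2 is uncertain. The fit without DMSO replicate 3 called 1. The superoxide dismutase gene sod-3 and the hypoxia target nhr-57 were not called (adjusted p = 0.9998 and 0.269).

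Among other tissues, sperm genes had 2 of 54 called higher, msp-57 and msp-76, whose reads can likewise be shared with near-identical copies. Without DMSO replicate 1, DMSO replicate 3 or antimycin replicate 2 edgeR called 0, without antimycin replicate 1 it called 1 and without DMSO replicate 2 it called 4. The list had a median log2 fold change of 1.81, or 0.96 once the 13 genes without counts in a whole group take their bound. Of 87 sperm genes in the count table only these 54 passed the filter. It used the libraries of all groups, so genes could pass through a group where they are high. Both medians may lean upward for that reason, which was not tested. The whole sperm list summed to 165, 169 and 123 CPM in antimycin, against 147, 145.5 and 145 CPM in DMSO, and these sums overlapped. The 23 major sperm protein genes that passed the filter summed to 16.9, 22.3 and 10.01 CPM in antimycin, against 0.217, 7.28 and 2.16 CPM in DMSO. These sums did not overlap, and the same limit of the filter applies to them. Of 17 muscle markers 1 was called, the troponin I gene tni-1, which was lower, with 45.9, 60.7 and 54.1 CPM in antimycin, against 109, 79.1 and 102 CPM in DMSO (log2 fold change -0.85 ± 0.16, adjusted p = 0.000966). edgeR and DESeq2 called 0 of 22 oocyte and eggshell genes (1 higher and 4 lower at an unadjusted p below 0.05), 0 of 30 germline genes (0 at that p), 0 of 17 neuron markers (2 higher and 2 lower) and 0 of 6 vitellogenins, the yolk proteins (2 lower).

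**Figure D3:**
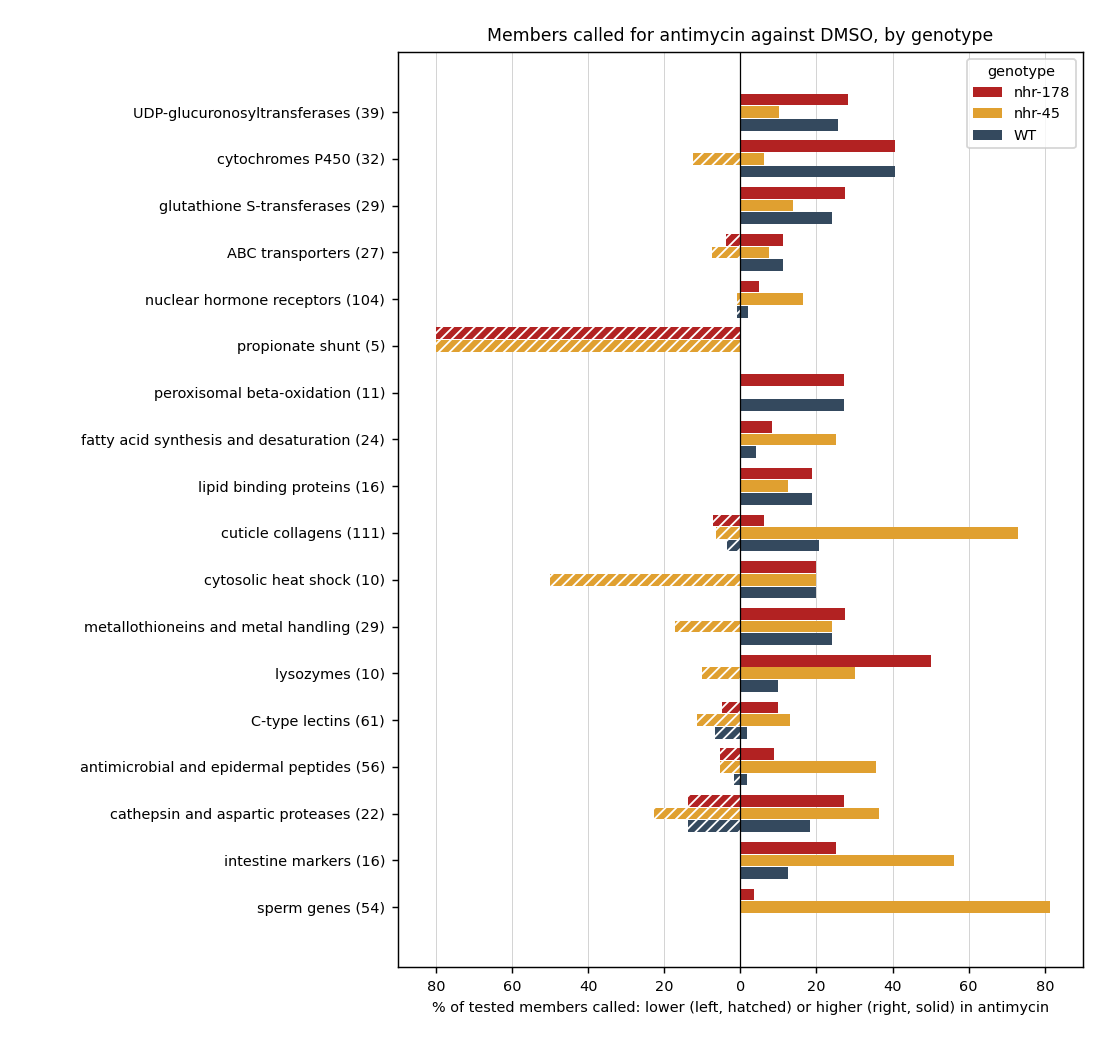
Percent of the tested members of each gene list (number tested in brackets) called for antimycin against DMSO, higher as solid bars to the right and lower as hatched bars to the left, with nhr-178 above nhr-45 and WT. In nhr-178, 13 of 32 cytochromes P450 and 5 of 10 lysozymes are called higher and 4 of 5 propionate shunt genes lower. In nhr-45, 4 of 5 shunt genes are lower too, and the longest collagen and sperm bars belong to nhr-45.

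The response of nhr-178 was set beside that of WT, measured in other libraries. Of the 225 genes called higher in nhr-178, 104 were also called higher in WT, which is 46.2% of the nhr-178 genes and 45.8% of the WT genes. Of all genes tested, 2.07% were called higher in WT and 0.938% lower. Of the 72 called lower, 22 were also called lower in WT, 30.6% of the nhr-178 genes and 21.4% of the WT genes. Not called in WT were 169 of the 297, which does not show a difference. The difference itself was tested as an interaction (the log2 change in nhr-178 minus that in WT). It called 29 genes (0.264% of those tested), 16 more positive in nhr-178 and 13 more negative, of which 23 were also called in nhr-178. Of the UDP-glucuronosyltransferases 1, ugt-31, was among the 29. Of the P450 and glutathione S-transferase genes edgeR and DESeq2 called 0, with 0 and 2 more positive at an unadjusted p below 0.05. For ugt-9 the interaction was -0.41 ± 0.32 (adjusted p = 0.828). Its antimycin libraries had 1483, 1451 and 1550 CPM in nhr-178, against 1725, 1974 and 2164 CPM in WT.

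Of the 22 cathepsin and aspartic proteases 2, asp-8 and asp-12, were called with a larger response in nhr-178 than in WT. Of the genes described next, asp-8, F46C5.1, tts-1, clec-83 and adh-1 were also called higher in nhr-45, and asp-12 was not. asp-12 rose in nhr-178 (values above). WT animals had 0.651, 1.11 and 0.284 CPM in antimycin and 0.712, 0.655 and 0.757 CPM in DMSO, where it was not called (interaction 3.80 ± 0.73, adjusted p = 0.0168). For asp-8, WT animals had 59.9, 47.7 and 57.9 CPM in antimycin and 36.4, 29.6 and 29.8 CPM in DMSO (interaction 1.40 ± 0.24, adjusted p = 0.00589). The response in nhr-178 was also more positive than that in nhr-45 for asp-12 and asp-8, by 3.31 ± 0.78 and 0.93 ± 0.24 (adjusted p = 0.00971 and 0.0159). The asp-12 interaction lost its call without WT antimycin replicate 3 or nhr-178 antimycin replicates 2 or 3 (adjusted p up to 0.0691). F46C5.1 (II:8820153-8821190), which overlaps linc-72, had 27.5, 22.7 and 25.6 CPM in antimycin, against 1.52, 1.67 and 1.16 CPM in DMSO in nhr-178. In WT it had 8.46, 13.6 and 8.67 CPM in antimycin and 4.39, 7.60 and 4.004 CPM in DMSO (interaction 3.13 ± 0.41, adjusted p = 0.000222). In nhr-45 it had 74.5, 83.3 and 83.2 CPM in antimycin and 2.53, 1.19 and 1.40 CPM in DMSO, and the response of nhr-178 minus that of nhr-45, -1.39 ± 0.48, was not called (adjusted p = 0.0866). Its DMSO level was lower in every nhr-178 library than in any WT library. The noncoding RNA tts-1 had 112, 129.7 and 132 CPM in antimycin, against 42.5, 58.7 and 40.9 CPM in DMSO in nhr-178. In WT it had 81.98, 68.7 and 56.3 CPM in antimycin and 80.6, 65.2 and 54.1 CPM in DMSO (interaction 1.35 ± 0.24, adjusted p = 0.00917). In nhr-45 it had 241, 238 and 261 CPM in antimycin and 41.9, 53.7 and 50.1 CPM in DMSO, where the response was larger than in nhr-178 (difference -0.96 ± 0.24, adjusted p = 0.0151). clec-83 had an interaction of 1.02 ± 0.19 (adjusted p = 0.00955). The alcohol dehydrogenase gene adh-1, which overlaps sodh-2, had one of 1.26 ± 0.25 (adjusted p = 0.0175), lost without WT DMSO replicate 2 or nhr-178 DMSO replicates 1 or 2 or WT antimycin replicate 3 or nhr-178 antimycin replicates 2 or 3 (adjusted p up to 0.0706). In nhr-45 adh-1 had 169, 134 and 152 CPM in antimycin and 9.32, 12.5 and 11.6 CPM in DMSO, again a larger response than in nhr-178 (difference -2.42 ± 0.25, adjusted p = 2.0e-07).

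Among genes with a lower response than in WT, ram-2 (II:11015589-11016881) had 1.24, 3.96 and 5.43 CPM in antimycin, against 13.5, 13.2 and 11.97 CPM in DMSO in nhr-178. In WT it had 18.5, 19.9 and 15.9 CPM in antimycin and 5.58, 4.98 and 7.47 CPM in DMSO (interaction -3.36 ± 0.42, adjusted p = 0.000156). It was called lower in nhr-178 and higher in WT. tni-1 had 85.5, 122 and 105 CPM in antimycin and 74.4, 80.4 and 74.6 CPM in DMSO in WT. Its interaction was -1.30 ± 0.22 (adjusted p = 0.00589). The muscle myosin gene unc-54, also among the 29, was singled out after its values were seen. It had 1102, 830.1 and 784 CPM in antimycin and 1176, 908 and 899 CPM in DMSO in nhr-178. In WT it had 4422, 3721 and 4826 CPM in antimycin and 1659, 1636 and 2072 CPM in DMSO (interaction -1.41 ± 0.25, adjusted p = 0.00917). It was called in WT and not in nhr-178. ech-6 of the propionate shunt gave -0.85 ± 0.19 (adjusted p = 0.045), with 307, 429 and 356 CPM in antimycin and 263, 338 and 315 CPM in DMSO in WT. That call was kept in 1 of 12 fits that left out a library (adjusted p up to 0.233). The number of interaction genes was 15, 16 and 19 without nhr-178 DMSO replicates 1, 2 and 3, and 9 and 11 without nhr-178 antimycin replicates 2 and 3. It was 15 and 18 without WT DMSO replicates 1 and 2, and 16 and 11 without WT antimycin replicates 2 and 3.

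**Figure D4:**
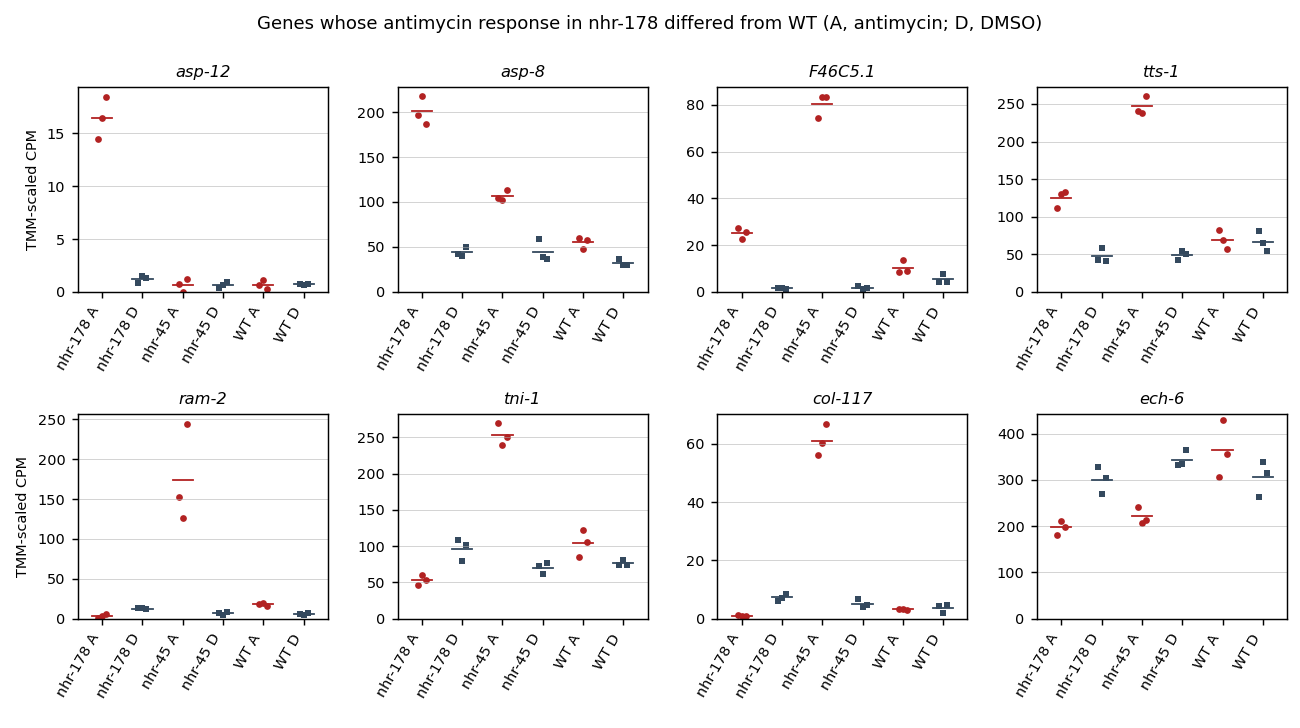
TMM-scaled CPM of 8 genes whose response in nhr-178 differed from that in WT, in all 18 libraries; points are libraries and bars are means of 3, with antimycin (A, circles) left of DMSO (D, squares) and nhr-178 left of nhr-45 and WT. asp-12 is above 14 CPM in the nhr-178 antimycin libraries and below 2 CPM in all others, and ram-2, tni-1 and col-117 are lower in antimycin in nhr-178 and higher in antimycin in nhr-45.

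Against nhr-45, the response of nhr-178 differed in many more genes. The difference (the log2 change in nhr-178 minus that in nhr-45) was called for 633 genes (5.76% of those tested), 176 more positive in nhr-178 and 457 more negative, and for 84 of the 297 genes called in nhr-178. Of the 225 genes higher in nhr-178, 105 were also called higher in nhr-45 (46.7% of the nhr-178 genes and 6.29% of the nhr-45 genes). Of the 72 lower, 21 were called lower in nhr-45 (29.2% of the nhr-178 genes and 2.3% of the nhr-45 genes). This difference and the interaction with WT share the nhr-178 libraries, so they are not independent of each other.

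Detoxification genes were among those with a more positive response in nhr-178. Of the UDP-glucuronosyltransferases 8 differed in that direction and 1 in the other, and of the P450 genes 5 were more positive. ugt-9 was at 4.73, 9.68 and 5.15 CPM in antimycin and 9.19, 4.32 and 6.05 CPM in DMSO in nhr-45 animals. The difference was 7.69 ± 0.39 (adjusted p = 1.7e-13). For pgp-9 nhr-45 animals averaged 3.004 ± 0.902 CPM in antimycin and 1.70 ± 0.465 CPM in DMSO (SD, n = 3 each), a difference of 4.47 ± 0.62 (adjusted p = 2.3e-05). cyp-33C5 gave 8.94 ± 1.18 and cyp-25A2 4.22 ± 0.57 (adjusted p = 1.5e-05 and 1.7e-05). Both rest on few counts in nhr-45. Over the 3 libraries of a group, cyp-33C5 had 5 in antimycin and 11 in DMSO there, and cyp-25A2 22 and 31. With 1 library left out the cyp-33C5 difference lay between 7.78 and 10 (adjusted p up to 0.0121). cdr-4 was higher in both mutants, but less so in nhr-45, which averaged 21.03 ± 1.12 CPM in antimycin and 6.42 ± 0.74 CPM in DMSO (difference 2.41 ± 0.26, adjusted p = 3.8e-07). Of the hrg genes, hrg-3 and hrg-7 had a more positive response in nhr-178, by 2.23 ± 0.49 and 1.37 ± 0.20 (adjusted p = 0.00494 and 7.1e-05).

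Some genes went opposite ways. Of the 72 called lower in nhr-178, 17 (23.6%) were called higher in nhr-45, where 15.2% of all genes tested were called higher and 8.33% lower. By edgeR 0 genes were called higher in nhr-178 and lower in nhr-45, against 2 by DESeq2 and 29 at an unadjusted p below 0.05 in both. Of the 17, 6 were collagens (col-3, col-10, col-117, col-144, col-147 and col-169). col-10 averaged 54.4 ± 7.54 CPM in antimycin and 1.93 ± 0.517 CPM in DMSO in nhr-45 (SD, n = 3 each), a difference of -7.38 ± 0.46 (adjusted p = 1.0e-11). ram-2 and the noncoding RNA tts-2 gave -6.51 ± 0.42 and -6.45 ± 0.38 (adjusted p = 1.5e-11 and 3.8e-12). tni-1 averaged 253 ± 15.5 CPM in antimycin and 70.6 ± 7.31 CPM in DMSO in nhr-45 (difference -2.69 ± 0.22, adjusted p = 2.0e-09). The metabolic genes acs-2 and icl-1 were also in this group, with differences of -4.02 ± 0.34 and -2.01 ± 0.29 (adjusted p = 4.4e-09 and 4.5e-05). In nhr-45, 81 of the 111 collagens were called higher, against the 15.2% of all genes, and all 6 vitellogenins lower, against 8.33%. The response of nhr-178 differed from that of nhr-45 in 47 collagens, which were more negative in nhr-178, in 5 collagens, which were more positive, and in all 6 vitellogenins, which were more positive. These cuticle and yolk genes move with the differences between the mutants, and their part in the results was not tested. Of the 54 sperm genes 44 were called higher in nhr-45, against the 15.2% of all genes, with a median log2 fold change of 2.65. edgeR and DESeq2 called 0 of the 54 for the difference between the mutants (2 more negative in nhr-178 at an unadjusted p below 0.05). The filter on low counts used the nhr-45 antimycin libraries too, so sperm genes and collagens high only there could pass it. Their numbers called higher in nhr-45 may partly follow from that.

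**Figure D5:**
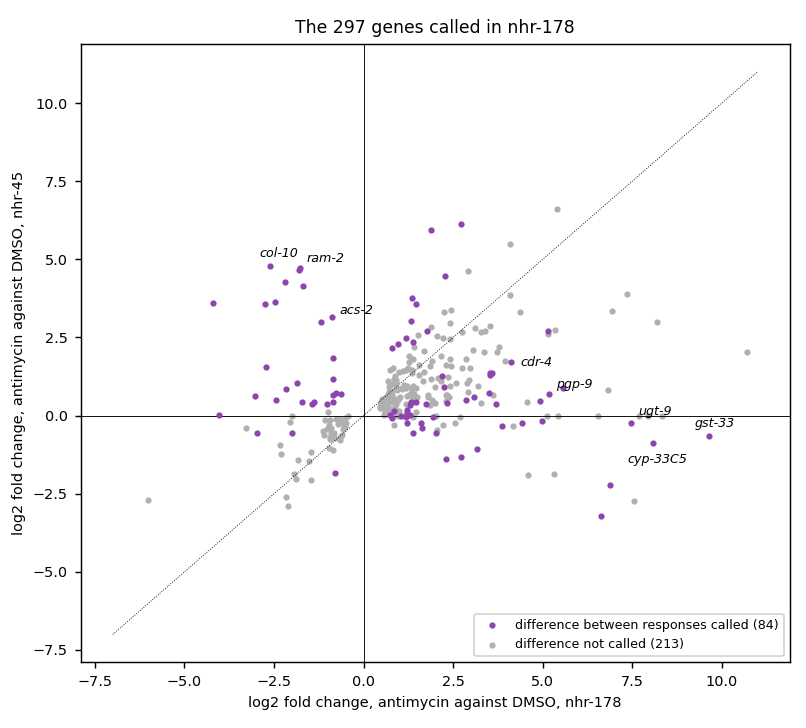
Fitted log2 fold changes of antimycin against DMSO for the 297 genes called in nhr-178, with nhr-178 on the horizontal and nhr-45 on the vertical axis; each point is a gene, purple where the difference between the 2 responses was called (84) and grey where it was not (213), and the dotted line marks equal responses. Points were chosen on the horizontal axis, and ugt-9, cyp-33C5 and gst-33 lie near 0 in nhr-45 while col-10, ram-2 and acs-2 lie below 0 in nhr-178 and above 0 in nhr-45.

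The genes that changed were unevenly placed in the genome. On chromosome V, which carries many gene families enlarged in nematodes, 76 of 1957 tested genes were called higher (3.88%) and 29 lower (1.48%), against 12 higher (0.638%) and 4 lower (0.213%) of 1880 on chromosome I. The other chromosomes lay between, from 1.41% higher on III to 2.39% on IV. Called genes also lay next to each other, in 27 runs of neighbouring protein-coding genes called in the same direction, 22 higher and 5 lower. The runs held 51 of 222 protein-coding genes called higher and 11 of 70 called lower. The longest runs had 4 genes. These were cyp-13A2, cyp-13A5, cyp-13A7 and cyp-13A8 on II:9783384-9807569, gst-20, gst-24, gst-14 and gst-12 on II:13608154-13618061, and C36A4.10, cyp-25A1, cyp-25A2 and cyp-25A3 on III:3829583-3839735. Runs of lower genes included F18E3.11, F18E3.12 and F18E3.13 on V:7413482-7416433. F18E3.13 had 16.1, 17.98 and 16.6 CPM in antimycin, against 62.96, 43.8 and 31.9 CPM in DMSO (log2 fold change -1.44 ± 0.21, adjusted p = 3.8e-05). Its response differed from that of WT by -1.69 ± 0.29 (adjusted p = 0.00589). Neighbours of like sequence can share reads, and whether that adds to these runs was not tested.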

How the data were processed

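Whole early adult worms were profiled by RNA sequencing. The authors deposited raw counts per gene, whole numbers in one table; Bowtie2, RSEM, DESeq2 and R 3.6.3 are named in the submitters' processing notes, without their roles. The sources used here do not give the genome build, the use of strand or the handling of multi-mapping reads. All 18 columns matched samples by title. Positions are from the WBcel235 annotation, joined by gene identifier, and may differ from the authors' build. Genes of the mitochondrial genome were not analysed here.

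Counts of all 18 libraries were fitted with edgeR 4.0.16 in R 4.3.3 (quasi-likelihood test, TMM scaling, filterByExpr by group, 1 mean per group, 12 residual degrees of freedom). The SE is the log2 fold change over the square root of F. Two-sided tests compared antimycin with DMSO in nhr-178, that response with WT's, and with nhr-45's. Where a group had no count, the floor was 3 counts over the group (0.145 CPM in antimycin, 0.174 CPM in DMSO); ratios with 1 to 3 counts carry an exact 95% interval. Both cover counting error only. Among called genes, 57 share exon positions with another counted gene. Libraries of a group differed by more than sampling noise (chi-square per degree of freedom 7.82 to 11.5 in nhr-178). The steps were tested on simulated data.

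The members and the 50 gene lists were chosen with earlier results of these data known. The rule for naming genes took, among called genes averaging 5 CPM or more without overlap between groups, the 12 highest and the 12 lowest log2 fold changes, the 10 most abundant called, up to 4 called members per list by smallest p, the 8 of smallest p per direction for each difference among genes also called in nhr-178, and 8 readouts, 103 in all, of which the text names part. Alternatives were other size factors, DESeq2 1.42.0, other filters, the compared groups alone, a replicate block and leaving out libraries.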

Additional observations from a re-analysis of the deposited data

Results flagged for a closer look

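The response to antimycin in nhr-178 differed by the tested difference from that in another genotype for the following genes, given with the log2 change in nhr-178 minus that in the other genotype. It was more positive than in WT for F46C5.1 (3.13), asp-8 (1.40), T04D3.8 (1.94), tts-1 (1.35), clec-83 (1.02), asp-12 (3.80), adh-1 (1.26) and M02H5.8 (1.22), and more negative than in WT for ram-2 (-3.36), tni-1 (-1.30), F18E3.13 (-1.69), col-117 (-2.59), nlp-24 (-0.87), R10D12.1 (-2.86), pmp-5 (-1.20) and ech-6 (-0.85). It was more positive than in nhr-45 for ugt-9 (7.69), cdr-4 (2.41), cyp-33C5 (8.94), cyp-25A2 (4.22), pgp-9 (4.47), ugt-62 (2.23), cdr-2 (2.15) and B0035.13 (2.02), and more negative than in nhr-45 for tts-2 (-6.45), col-10 (-7.38), ram-2 (-6.51), col-3 (-6.47), col-117 (-6.32), col-144 (-5.84), tni-1 (-2.69) and acs-2 (-4.02). Each difference had an adjusted p below 0.05 over all 10981 genes, with 3 libraries in each of the 4 groups compared. T04D3.8 was called higher in nhr-178 and lower in WT, and ram-2 lower in nhr-178 and higher in WT. The nhr-178 call of T04D3.8 (adjusted p = 0.0432) was kept in 3 of 6 fits that left out an nhr-178 library (adjusted p up to 0.541). The 8 genes more negative than in nhr-45 were all called lower in nhr-178 and higher in nhr-45. With each of the 12 libraries of nhr-178 and WT left out in turn, the difference from WT stayed called in 9 of 12 fits for asp-12 and col-117, in 6 for adh-1 and R10D12.1, in 5 for nlp-24, in 4 for M02H5.8, in 3 for pmp-5 and in 1 for ech-6. ram-2, tni-1 and col-117 stand in both comparisons, which share the nhr-178 libraries. With 3 libraries a group, no test for a single outlying library was made.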

How the results depend on the processing

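The number of genes called in nhr-178 (297) ranged from 196 to 279 when one library was left out, that of the interaction with WT (29) from 9 to 41 and that of the difference to nhr-45 (633) from 440 to 649. DESeq2 called 72 interaction genes and the table with no filter 103, and all 29 were among the calls of both. Apart from these and from leaving out 1 library, the 3 counts stayed within 1.5 times in the alternatives tried, with 234 to 408 genes called in nhr-178, and without both shallow libraries (WT antimycin replicate 1 and nhr-45 antimycin replicate 2) they were 311, 43 and 591. Correlations between same-numbered libraries were -0.0131, 0.0328 and 0.0416 in nhr-178, 0.0305, 0.0275 and 0.0782 in nhr-45 and -0.0179, 0.0182 and -0.000968 in WT. They show no clear pairing by replicate number, but 3 libraries a group cannot exclude it. The replicate block gave 296, 30 and 640 genes. Of the named genes, hsp-6, gst-4 and sod-3, none of them called, changed sign: hsp-6 was 0.00952 unfiltered and 0.0126 under the stricter filter, and over the fits without 1 library hsp-6 lay between -0.0545 and 0.0592, gst-4 between -0.218 and 0.547 and sod-3 between -0.824 and 1.22; the cause was not tested. None of the called genes among the 103 named ones, and none of the 16 named differences from WT or the 16 from nhr-45 that were called, reversed in the alternatives tried. Sperm genes called higher numbered 4 by DESeq2 and 8 with no filter, collagens 12 with no filter and fatty acid synthesis genes 4 by DESeq2; with the stricter filter 1 ABC transporter, 2 receptors and 1 heat shock gene were higher. Genes at under 1 CPM in a group rest on few counts at this depth.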

Other observations

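Genes of the vacuolar ATPase, the proton pump that acidifies lysosomes and the gut lumen, were looked at as a set after vha-8, vha-12 and vha-19 had appeared among the abundant called genes, so they give a description with no test. Of 21 genes tested, 4 were called higher in nhr-178 (the fourth was vha-10), against 2.05% of all genes tested. A positive log2 fold change was found in 19, and the median was 0.27, against 0 over all genes. In nhr-45 18 of the 21 were positive, with a median of 0.23, and 4 were called higher, vha-8 among them (adjusted p = 0.0396), and 2 lower. Those 2 counts stand against 15.2% and 8.33% of all genes tested in nhr-45. In WT 16 of the 21 were positive, with a median of 0.08. edgeR and DESeq2 called 0 of them in WT, and 0 had an unadjusted p below 0.05. vha-8 (IV:6791074-6792455) had 1285, 1298 and 1565 CPM in antimycin, against 1002, 982 and 1041 CPM in DMSO (log2 fold change 0.46 ± 0.11, adjusted p = 0.0149), and its call was lost without DMSO replicates 1 or 2 or antimycin replicate 3 (adjusted p up to 0.17). vha-19, which overlaps otub-4, had 976, 1175 and 1412 CPM in antimycin, against 801, 825 and 894 CPM in DMSO (log2 fold change 0.50 ± 0.14, adjusted p = 0.0496), lost without DMSO replicates 1, 2 or 3 or antimycin replicates 2 or 3 (adjusted p up to 0.366). vha-12 had 653, 637 and 756 CPM in antimycin, against 548, 444 and 475 CPM in DMSO (log2 fold change 0.48 ± 0.13, adjusted p = 0.044), lost without DMSO replicates 2 or 3 or antimycin replicates 1, 2 or 3 (adjusted p up to 0.251). The difference from the WT response was not called for any of these 3 (adjusted p = 0.671, 0.552 and 0.185).

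Genes of lysosomal lipid breakdown were singled out after their values were seen. asah-1, an acid ceramidase, had 101, 109.8 and 105 CPM in antimycin, against 39.1, 41.7 and 33.6 CPM in DMSO (log2 fold change 1.47 ± 0.17, adjusted p = 1.0e-06), and the acid lipase gene lipl-1 had 3.31, 3.17 and 4.43 CPM in antimycin, against 0.651, 0.606 and 0.166 CPM in DMSO (log2 fold change 2.91 ± 0.73, adjusted p = 0.0216), lost without DMSO replicates 1, 2 or 3 or antimycin replicates 2 or 3 (adjusted p up to 0.153). gba-2, a glucosylceramidase gene that overlaps gba-1, had 4.34, 4.75 and 2.002 CPM in antimycin, against 0, 0 and 0 CPM in DMSO and was at least 21.4-fold higher. Of the 10 lipases tested, lipl-1 was the only 1 called in nhr-178 and 9 were not called. In WT 1 lipase was called higher and in nhr-45 3, against 2.07% and 15.2% of all genes tested.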
